A study of Mus musculus with 6 samples.

Results

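The genes Hmga2 and Hmga1 encode the high mobility group A proteins. Their surroundings were examined for sites bound by GLI3R, the repressor form of the transcription factor GLI3, in cardiac progenitor cells derived from mouse embryonic stem cells. A peak belonged to the set when its summit, the base of highest signal, lay within 200 kb of the mm10 interval of either gene. In all, 8 of the 8019 peaks in the deposited lists met this rule, with 7 at Hmga2 and 1 at Hmga1. Both genes were chosen with results from these lists known, so the numbers of peaks around them are a description and carry no test.

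The study comprised 6 ChIP-seq libraries of line GLI3R-FTA (strain A2Lox.cre), harvested on day 6 of cardiac differentiation. Doxycycline cells received 500 ng/ml from day 5, for 24 h, to express the tagged GLI3R, and untreated cells of the same line received none. The tag was captured on streptavidin beads in 2 pull-downs per condition, with 1 input per condition. The deposited values are 1 peak list per condition, with 3640 peaks for doxycycline and 4379 for untreated cells after merging rows with the same interval. No peak therefore has a replicate error, and conditions are compared as lists. The induced protein is expressed from a transgene, so its binding is that of an added factor. The labels do not say whether the line is a single clone, and peak lists hold no expression values with which to check the cell type. The median summit rested on 7 fragments for doxycycline and 5 for untreated cells, and the smallest on 5 for doxycycline and 4 for untreated cells. Every value below is thus limited by small numbers of fragments.

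GLI3R represses Hedgehog target genes when the pathway is off. The HMGA proteins are small chromatin proteins that bind AT-rich DNA through short motifs called AT-hooks and change its shape. Hmga2 is abundant in embryonic tissue and stem cells and scarce in most adult tissue. The let-7 microRNAs repress it, and LIN28 proteins, which block let-7 maturation, favour its expression. These genes belong to the heterochronic network, the set of timing genes first described in Caenorhabditis elegans. Hmga1 is the paralog that is expressed more widely in proliferating cells.

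The doxycycline list held 4 peaks around the start of Hmga2, 2 before it and 2 after it, and 2 more farther upstream, while Hmga1 had none within 200 kb. The untreated list held 1 weak peak near each gene. Hmga2 (gene ID 15364) lies on the minus strand of chromosome 10, from 120361268 to 120476469, and is 115 kb long, longer than 90.8% of protein-coding genes. Hmga1 (gene ID 15361) lies on the plus strand of chromosome 17, from 27556574 to 27563672, and is 7.10 kb long. The 250 bases before each start, from RefSeq on GRCm38.p6, the assembly behind mm10, are shown because the Hmga2 peaks border this stretch and Hmga1 has none there. Both read 5′ to 3′ on the gene's strand, with runs of at least 10 consecutive C or T in capitals. The stretches are chr10:120476470-120476719 (minus strand) and chr17:27556324-27556573 (plus strand).
Hmga2: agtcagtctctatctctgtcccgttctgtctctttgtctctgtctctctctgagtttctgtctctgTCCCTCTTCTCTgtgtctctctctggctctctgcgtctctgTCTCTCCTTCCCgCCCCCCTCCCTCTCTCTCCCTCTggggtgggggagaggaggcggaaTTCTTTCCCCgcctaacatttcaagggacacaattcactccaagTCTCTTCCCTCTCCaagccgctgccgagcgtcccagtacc
Hmga1: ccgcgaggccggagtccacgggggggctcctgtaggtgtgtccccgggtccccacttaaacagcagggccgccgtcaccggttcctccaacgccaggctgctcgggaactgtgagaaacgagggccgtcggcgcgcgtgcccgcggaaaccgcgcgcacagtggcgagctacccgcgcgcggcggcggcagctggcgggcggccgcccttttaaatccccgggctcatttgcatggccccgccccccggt

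The Hmga2 stretch was 70.8% C or T on the printed strand, above 99.6% of the 21263 such stretches of protein-coding genes (median 49.6%). It held 71 bases in 5 runs of at least 10, the longest of 23 bases. The Hmga1 stretch had no such run and was 50.8% C or T, but its GC content of 72.8% was above that of 92.2% of stretches. At Hmga2 the GC content was 56.4%, close to the median of 55.6%. How far these repeats and base compositions affect the mapping of reads was not tested. The 9-base GLI consensus TGGGTGGTC was searched on both strands, and neither stretch held it exactly or with 1 mismatch. Of all stretches, 0.160% held it exactly and 5.80% with at most 1 mismatch. These letters were not searched in the peaks themselves, whose sequence was not used here.

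The strongest doxycycline peak at Hmga2 lay inside the gene (120474451 to 120474714), with its summit 1.883 kb after the start, at 1.63% of the gene's length. Its fold enrichment was 11.7. Folds are the authors' values throughout and matched the fragments plus 1 over the local expectation plus 1, so they are smaller than the plain ratio. Its −log10 q, the caller's false discovery measure, was 15.4. It rested on 15 fragments (exact 95% Poisson interval 8.40 to 24.7, counting error only) and ranked 134th of 3640 doxycycline peaks by −log10 q. The other peak inside the gene (120475757 to 120475985) had its summit 582 bp after the start, at 6.95-fold with a −log10 q of 6.03 and 9 fragments (4.12 to 17.1). Both summits fell in the part of the gene next to its start, and the remaining 113 kb, 98.4% of the gene, held no doxycycline summit. This stretch contains Mir763, a microRNA gene, at 26.5 kb from the closest doxycycline summit. It also holds 4 long non-coding RNA genes, of which Gm51785 was the nearest to the strongest peak, at 11.4 kb. Whether the summits lie in an exon or an intron was not analysed here.

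Before the start lay a peak at 342 bp (120476725 to 120476864, 7.31-fold, 9 fragments) and one at 726 bp (120477093 to 120477276, 6.43-fold, 9 fragments). Their −log10 q was 6.61 and 5.25. The 4 summits spanned 2.609 kb. The Poisson intervals of their fragments overlap, and whether the heights of the 4 differ was not tested. The peak at 342 bp begins 5 bp beyond the printed stretch, and the next peak on the other side lies inside the gene, 739 bp from it. No peak covered the start itself or the 250 bases before it. The local expectation at the 4 summits was 0.368 to 0.556 fragments, against 0.368 as the commonest value in the doxycycline list.

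**Figure D1:**
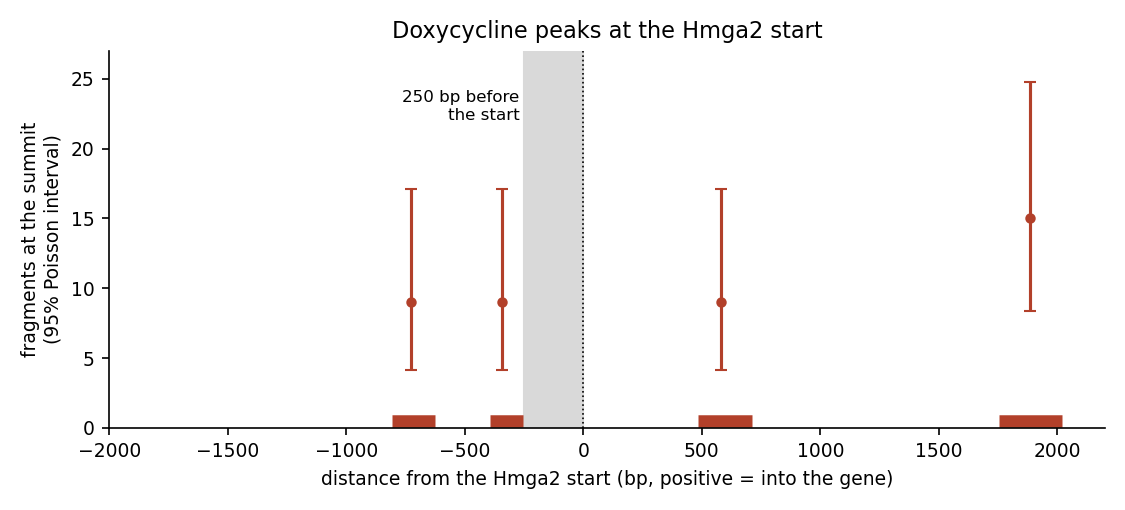
Doxycycline peaks around the Hmga2 start (0 bp, dotted line; positive distances run into the gene). Points give the fragments at each summit, with exact 95% Poisson intervals as error bars, thick bars on the axis give each peak's extent, and the shaded band is the 250 bp before the start. The summits at 726 and 342 bp before the start and 582 bp after it have 9 fragments each and the one at 1883 bp has 15, with overlapping intervals.

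Farther upstream, a doxycycline peak lay 75.5 kb before the start (120551851 to 120552136). It was the second strongest of the set, at 10.4-fold with a −log10 q of 12.8, 14 fragments (7.65 to 23.5) and rank 203. The nearest annotated gene other than Hmga2 is the long non-coding RNA gene Gm34952, 14.0 kb away. Another, 95.3 kb before the start (120571634 to 120571800), was the weakest, at 6.26-fold with a −log10 q of 4.88 and 8 fragments (3.45 to 15.8). By rank the 6 doxycycline peaks ran from 134 to 1217 of 3640, and all had a −log10 q above the list's median of 3.81. All 6 had Hmga2 as their nearest protein-coding gene, and none lay on the 3′ side of the gene. On that side are its protein-coding neighbours within 200 kb, namely Llph, Tmbim4, which encodes a membrane protein, and Irak3, a negative regulator of Toll-like receptor signalling. Their nearest doxycycline summits were 227 to 250 kb away.

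The untreated list held 1 summit within 200 kb of Hmga2 and none inside the gene or within 2 kb of its start. That peak lay 95.6 kb before the start (120572000 to 120572135), at 3.93-fold with a −log10 q of 1.48 and 4 fragments (1.09 to 10.2), the smallest pileup of that list. Its summit was 311 bp from that of the weakest doxycycline peak, and the intervals of both peaks were 199 bp apart. The Poisson intervals of their fragments, 3.45 to 15.8 for doxycycline and 1.09 to 10.2 for untreated cells, overlap, and the libraries' depths were not analysed here. None of the 6 doxycycline peaks overlapped an untreated peak by 1 bp or more, against 2.01% of all doxycycline peaks. An untreated summit within 500 bp was found for 1 of the 6, against 2.12% of all doxycycline peaks. At the 5 other sites the nearest untreated summit was 20.1 to 97.5 kb away. The smallest pileup was 4 fragments in the untreated list and 5 in that of doxycycline. Entry also depends on the local expectation, so absence from the untreated list gives no number of fragments at a site.

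Hmga1 had 0 doxycycline summits within 200 kb and 1 untreated summit. The untreated peak lay 12.3 kb before the start (27544210 to 27544359), at 3.93-fold with a −log10 q of 1.48 and 4 fragments, again the smallest pileup of its list. Both untreated peaks, at Hmga2 and at Hmga1, thus had a −log10 q that only 1.21% of untreated peaks fell below. Their shared rank by this value was 2855 of 4379, so many untreated peaks are tied with them and such weak peaks are common in that list. The nearest doxycycline summits were 1042 kb to one side of Hmga1 and 1128 kb to the other. The resulting stretch of 2177 kb without one is matched or exceeded by 206 of 3620 distances between consecutive doxycycline summits (5.69%, median 414 kb). The 7 protein-coding neighbours of Hmga1 within 200 kb held no summit of either list inside them. They include the metabotropic glutamate receptor gene Grm4, Nudt3, which encodes a polyphosphate hydrolase, the ribosomal protein gene Rps10 and the ETS factor gene Spdef. The others are AI413582, Pacsin1 and Ilrun. Hmga1b, a separate gene on chromosome 11, is not part of the set; it had 1 doxycycline and 1 untreated summit within 200 kb and no doxycycline summit within 2 kb of its start.

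**Figure D2:**
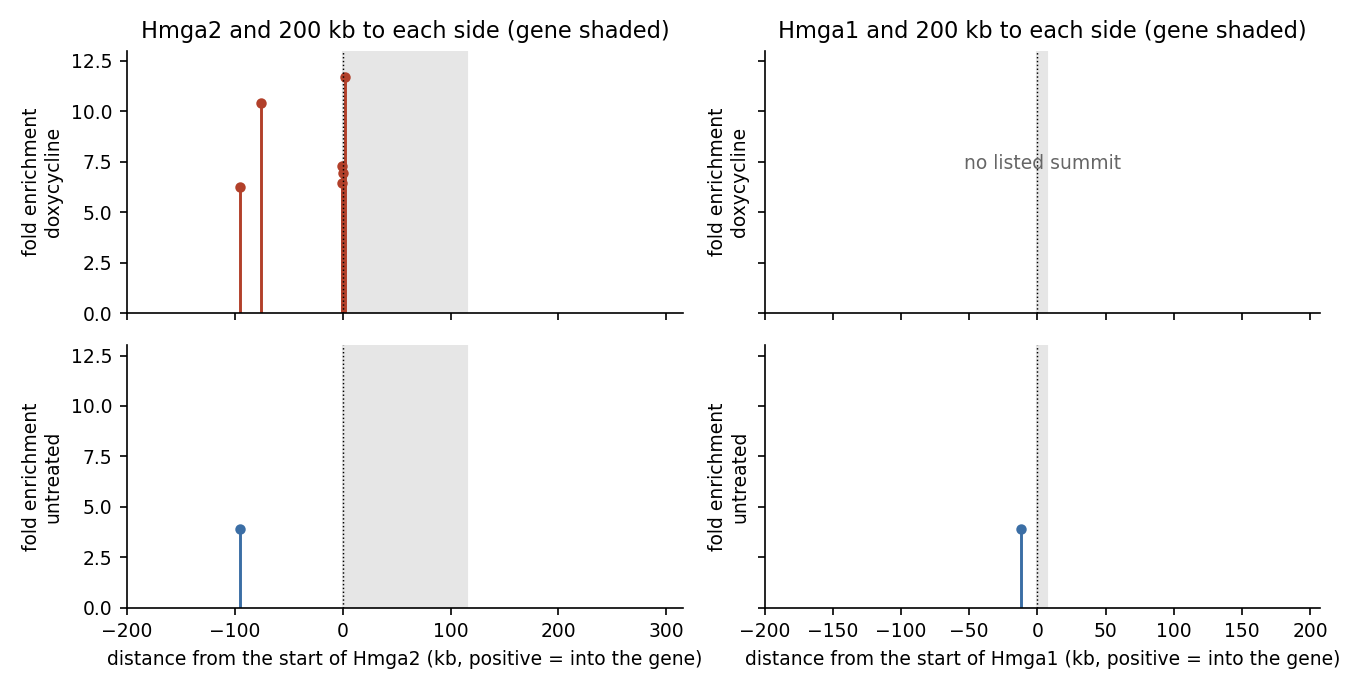
Fold enrichment of each peak (vertical axis, authors' values) against distance from the gene's start in kb, for Hmga2 on the left and Hmga1 on the right, with doxycycline peaks above and untreated peaks below; the gene is shaded. Doxycycline summits lie at the start of Hmga2 and 75.5 and 95.3 kb before it, with none over the rest of the gene or at Hmga1, and the untreated list has 1 summit at each gene, at 3.93-fold.

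The farthest peaks inside the 200 kb window of Hmga2 were the doxycycline one at 95.3 kb and the untreated one at 95.6 kb. The nearest outside were a doxycycline peak at 427 kb (5.85-fold, 7 fragments) and an untreated peak at 215 kb (6.85-fold, 8 fragments). For Hmga1 the nearest outside were a doxycycline peak at 1042 kb (11.7-fold, 15 fragments) and an untreated peak at 280 kb (3.93-fold, 4 fragments).

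Among 21887 protein-coding genes, a summit within 200 kb was present at 48.8% for doxycycline and at 47.6% for untreated cells, so 1 summit in this window, as Hmga1 had in the untreated list, is common. Genes with no doxycycline summit but an untreated one, the pattern of Hmga1, made up 23.2% of the total. At least 6 doxycycline summits, the number at Hmga2, were found at 78 genes (0.356%). Among 3535 genes of 0.5 to 2 times the length of Hmga2 they were found at 13 (0.368%). At least 1 doxycycline summit inside the gene was present in 6.16% of all genes and 15% of those of like length, and at least 2, as in Hmga2, in 0.978% and 2.12%. An untreated summit inside the gene was present in 5.96% of all genes.

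The start of Hmga2 stood at the end of the distribution. Of 17492 protein-coding genes with a start in the RefSeq table used, which is not complete, 1.93% had a doxycycline summit within 2 kb of a start and 0.635% an untreated one. At least 4 doxycycline summits were found at 1 gene (0.00572%), Hmga2 itself, and the largest number of untreated summits was 1. The 6 genes with 3 were Igf1r, the receptor for insulin-like growth factors, Igf2, which encodes one of its ligands, the chromatin reader gene Brd2 with its neighbour H2-DMa, Map1b, which encodes a microtubule-binding protein, and Rnd3, which encodes a small GTP-binding protein. Within the 250 bases before the start, the 6 genes with 3 summits and Hmga2 held no exact GLI consensus, and Map1b alone held it with 1 mismatch. Of all such stretches, 0.160% held it exactly and 5.80% with at most 1 mismatch, so 7 genes are too few to show a difference. The sequence of the peaks themselves was not searched. Counted without regard to genes, 3 of 3580 runs of 4 consecutive doxycycline summits and 0 of 4319 untreated runs were as short as the 2.609 kb at Hmga2. One of them lay near the beginning of the chromosome 9 sequence, 320 kb from Alkbh8. In that run all 4 peaks overlapped untreated peaks and the local expectation was 1.52 to 9.24 fragments, whereas at Hmga2 none overlapped.

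**Figure D3:**
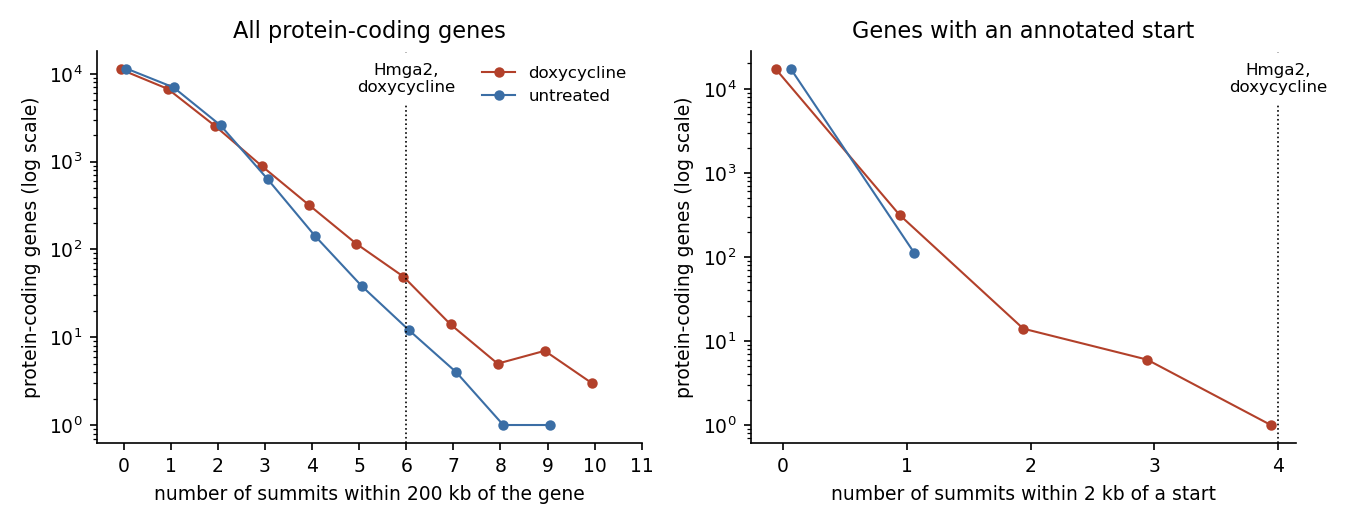
Number of protein-coding genes (log scale) against the number of summits within 200 kb of the gene (left, 21887 genes) and within 2 kb of a start (right, 17492 genes), for the doxycycline and untreated lists. The dotted lines mark the doxycycline counts of Hmga2, 6 summits within 200 kb, reached by 78 genes, and 4 within 2 kb of the start, reached by Hmga2 alone.

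Genes with as many doxycycline summits inside as Hmga2, or more, and no untreated summit inside numbered 124 with Hmga2 itself, which ranked 13th by its best −log10 q. The 5 with the highest values were Arrb1, which encodes beta-arrestin 1 (3 summits inside, strongest 36.5-fold), the adenylyl cyclase gene Adcy5 (2, 18.3-fold), the Hedgehog receptor gene Ptch1 (3, 17.7-fold), the survival gene Bcl2l1 (3, 13.8-fold) and Frem1, which encodes an extracellular matrix protein (2, 13.2-fold). They share only this count rule with Hmga2.

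The surroundings of other let-7 and LIN28 network genes were then described, from a list of 22 that includes Hmga2 and Hmga1. A doxycycline summit lay within 200 kb of 16 of 22 (72.7%, against 48.8% of all protein-coding genes), and an untreated summit near 15 (68.2%, against 47.6%). Both lists had one near 10 genes, the doxycycline list alone near 6, the untreated list alone near 5, and neither near Tut7, which encodes a uridylyl transferase. The share of list genes was above that of all genes for both peak lists. Inside genes the numbers were 10 of 22 for doxycycline (6.16% of all genes) and 1 of 22, the exonuclease gene Dis3l2, for untreated cells (5.96%). Within 2 kb of a start they were 5 of 17 genes with a known start for doxycycline (1.93%) and 0 for untreated cells (0.635%). These counts carry no test, and the list was not adjusted for gene length.

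By number of doxycycline summits, Hmga2 with 6 stood beside Arid3a with 8, Igf1r with 7 and Igf2 with 6, with 1 untreated summit at Hmga2, 2 at Arid3a, 1 at Igf1r and 0 at Igf2. At the start, Igf1r and Igf2 had 3 doxycycline summits each, Cdk6, a cyclin-dependent kinase gene, had 2 and the transcription factor gene Mycn had 1. Trim71, which encodes a ubiquitin ligase, had 4 within 200 kb, 3 of them inside the gene, with the strongest at 7.31-fold. The strongest peak near Arid3a, which encodes a DNA-binding protein, was 18.1 kb from the gene, at 14.0-fold. At that site the untreated list had a peak of 664-fold, so it is no peak of the doxycycline list alone. The strongest near Igf2 was 15.3-fold but 193 kb from the gene. Igdcc3, which encodes an immunoglobulin superfamily protein, had a 13.9-fold peak inside the gene, and Cdk6 one of 12.3-fold. Igf2bp1, which encodes an RNA-binding protein, had one of 10.9-fold inside the gene and Ccnd2, a cyclin gene, one of 10.2-fold at 1.20 kb. Igf2bp1 also had untreated peaks, the strongest of 6.66-fold at 43.2 kb. Ccnd2 had an untreated peak of 7.07-fold at 1.07 kb, beyond the opposite end of the gene from its doxycycline peak. The LIN28 genes differed in their values: Lin28a had 1 doxycycline peak inside the gene (7.31-fold, 9 fragments) and no untreated one, and Lin28b had no doxycycline peak and 1 untreated peak 187 kb away (4.72-fold, 5 fragments). Lin28b, Igf2bp3, Myc, Hmga1 and E2f6 had an untreated summit alone.

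**Figure D4:**
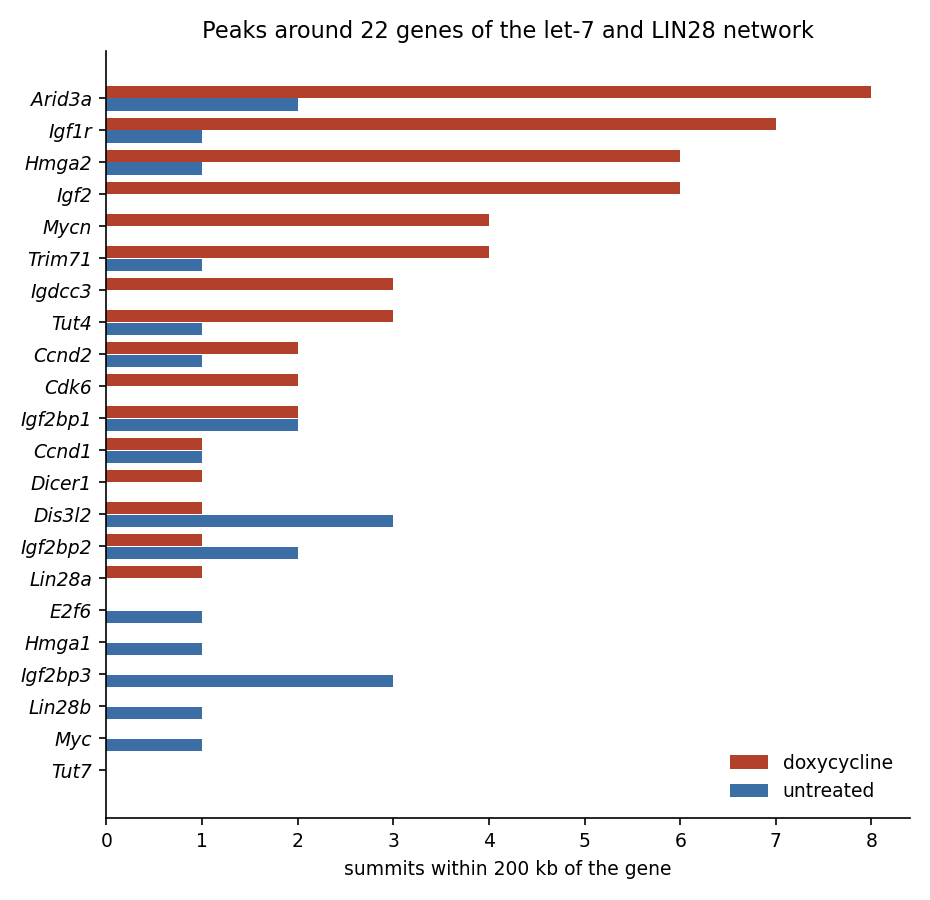
Number of summits within 200 kb of each of 22 genes of the let-7 and LIN28 network, with doxycycline bars above untreated bars for each gene. Hmga2 has 6 doxycycline and 1 untreated summits, beside 8 and 2 at Arid3a, 7 and 1 at Igf1r and 6 and 0 at Igf2, while Hmga1 has 0 and 1.

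Among 14 genes for high mobility group proteins, including Hmga2 and Hmga1, 9 had a doxycycline summit within 200 kb (64.3%, against 48.8% of all genes) and 6 an untreated one (42.9%, against 47.6%). Only Hmga2 and Hmgb1, which encodes an abundant DNA-bending protein, had a doxycycline summit inside the gene, and among the 11 genes with a known start only these had one within 2 kb of it. Hmgb1 had 1 such summit, and none of the genes had an untreated one in either place. The genome-wide doxycycline shares were 6.16% for summits inside and 1.93% for those within 2 kb of a start. The untreated shares were 5.96% and 0.635%, so finding none in a list this short shows no difference between conditions. These counts carry no test. The best doxycycline peak within 200 kb was 11.7-fold for Hmga2 and 9.93-fold for Hmgb2, at 178 kb. For Hmgn1 and Hmgxb4 it was 8.04-fold at 200 kb and 162 kb, and for Hmgb1 6.39-fold at 176 kb. Hmgn2, at 43.7 kb, shares its 7.31-fold peak with Lin28a. Hmgn3 had one of 5.12-fold at 8.95 kb and Hmgxb3 one of 6.58-fold at 148 kb, and both also had untreated summits. Hmgn5 had an untreated summit alone (4.72-fold, 98.5 kb), and Hmgb3, Hmgb4 and Hmg20b had none in either list.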

How the data were processed

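Titles gave the groups, and they name GLI3R although the treatment protocol speaks of GLI1. MACS2 2.1.1, Bowtie2 2.3.2, SAMtools 1.5 and the mm10 build are named, without settings, per the submitters' processing notes; any pooling of pull-downs is not given in the sources. The authors deposited for each peak a fold enrichment (a ratio), a −log10 p, a −log10 q and a score, which is 10 times −log10 q without decimals and was not used. Rows sharing an interval were merged (3725 to 3640 doxycycline, 4428 to 4379 untreated). Fragments at a summit were worked back from −log10 p and fold, taken as (fragments + 1) / (expectation + 1), and a whole number matched within 0.01 for 99.97% and 100% of peaks. Library totals were not analysed here. Genes and starts came from RefSeq tables on GRCm38.p6. A summit was counted by distance to the gene interval, counted from 1. The software was Python 3.11.15 with scipy 1.17.1, numpy 2.4.6, matplotlib 3.10.9 and pandas 2.3.3. On simulated data, fragments were recovered for 100% of 2000 peaks, and 200 of 200 planted genes were found. The members and lists were chosen with earlier results of these data known. Genes named are the members, their neighbours within 200 kb, the 6 network genes with the best doxycycline peak, genes of the high mobility group list with a summit (1 of them is not reported here), and 5 genes alike in pattern; genes with 3 or more summits at a start, Alkbh8, Hmga1b and the remaining network genes were named after their values were seen. The window around starts, runs of 4 summits and C or T content were also chosen after seeing the data. Alternatives were stricter thresholds, other windows, all rows and other overlap rules.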

Additional observations from a re-analysis of the deposited data

How the results depend on the processing

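Of 70 alternatives over 12 counts, 45 left the count within 1.5 times its reported value and 25 moved it. Counts near the start of Hmga2 were tried with alternatives chosen after seeing the data. No paired analysis was possible because the lists, 1 per condition, carry no replicate numbers, and no replicate could be left out. With at least 10-fold enrichment the doxycycline summits within 200 kb of Hmga2 numbered 2 in place of 6, inside it 1 in place of 2 and at its start 1 in place of 4. The doxycycline network genes then numbered 7 of 22 in place of 16 and high mobility group genes 1 of 14 in place of 9, against 5.90% of all genes. Untreated summits at Hmga2 and at Hmga1 numbered 0 in place of 1 with a −log10 q of at least 5, with 10-fold enrichment or with at least 5 fragments, since each had 4. With a window of 50 kb the one at Hmga2 was also 0. With 500 kb there were 3 at Hmga2 and 2 at Hmga1. Untreated network genes numbered 6 with a −log10 q of at least 5 (6.03% of all genes), 1 with 10-fold enrichment (0.594%) and 8 within 50 kb (18.8%), in place of 15. Untreated high mobility group genes numbered 1, 0 and 2 under the same settings, 3 with at least 5 fragments (33.7%) and 10 within 500 kb (76.6%), in place of 6. Doxycycline high mobility group genes numbered 5 within 50 kb (20.05%) and within 100 kb (31.3%). One doxycycline peak (1 in place of 0) met an untreated summit within 500 bp. Stricter settings leave fewer peaks by construction. The 0 doxycycline summits at Hmga1 could not change under any of the 7 alternatives run, so these give no added support. Stricter thresholds and smaller windows only remove peaks, and unmerged rows repeat intervals already listed. The nearest doxycycline summit, 1042 kb away, lies outside the window of 500 kb. The GLI consensus search in peaks was not run. Pileups of 4 to 15 fragments limit every comparison of heights.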
